A study of Mus musculus with 9 samples.

Results

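The genes described here are 6 ligands of the epidermal growth factor (EGF) family (Egf, Hbegf, Areg, Ereg, Tgfa and Btc) and the 4 ERBB receptor genes (Egfr, Erbb2, Erbb3 and Erbb4). They were taken by symbol from a counts table of 48587 genes, and all 10 were found in it. RNA was sequenced from retinas of C57BL/6J mice at an age of 12 weeks. Untreated retinas came from mice without laser treatment. The laser-treated mice received 200 mg/kg of the photosensitizer eosin Y. All large veins of one eye were then occluded with a laser of 50 mW, a spot of 50 µm and a duration of 2.5 s (RVO), and the fellow eye received the same number of laser sites between the vessels (control). Both were sampled at d2. Each group had 3 samples, each a pool of 6 retinas, so n counts pools and the spread between single mice was not measured. Whether untreated mice received eosin Y is not given in the sources used here.

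ERBB receptors are tyrosine kinases that act in pairs. Ligands are made as membrane-bound precursors and are cut from the cell surface by ADAM proteases. Egfr binds EGF, TGF-alpha and amphiregulin. HB-EGF, betacellulin and epiregulin bind both Egfr and Erbb4, neuregulins bind Erbb3 and Erbb4, and Erbb2 has no ligand of its own but is the preferred partner of the others. The pairs signal through RAS-ERK, PI3K-AKT and STAT proteins. In the retina, Mueller glia are known to respond to EGF and HB-EGF after injury, and Erbb4 is known from interneurons.

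Values are CPM, gene counts per 1e6 counts, with sample totals scaled by TMM factors. Total counts were 12377572 to 15245869 in untreated, 18897218 to 23419497 in control and 21022997 to 28993921 in RVO samples, so low values were least precise in untreated retinas. Groups were compared with edgeR's quasi-likelihood test over all genes, and a gene was called at a Benjamini-Hochberg adjusted p under 0.01. One sample stood apart. RVO replicate 2 was the RVO sample nearest to the control mean for 64.4% of 16874 genes tested between RVO and control, and for 9 of the 9 members tested there. The summed level of 7 lens genes was 3808 CPM in RVO replicate 2 and 126 and 303 CPM in the other RVO samples. It was also high in control replicate 1, with 2082 CPM, where the other control samples had 143 and 238 CPM and untreated samples 2.57 to 21.1 CPM.

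The retina was recognizable by its markers in every sample, with 5 rod genes summing to 79497 to 81420 CPM in untreated, 51095 to 62622 CPM in control and 41009 to 45005 CPM in RVO retinas. Markers of retinal neurons, Mueller cells and microglia were called lower more often than higher in RVO retinas than in untreated ones, where 24.6% of all 16380 genes tested were called lower and 27.4% higher. Of the markers tested, 5 of 5 rod, 4 of 5 cone, 4 of 5 bipolar, 4 of 5 amacrine, 5 of 5 ganglion cell, 3 of 6 Mueller cell and 4 of 5 microglia genes were called lower. Higher calls were made for 4 of 6 monocyte and macrophage, 3 of 3 neutrophil, 3 of 5 lens, 3 of 5 fibroblast, 2 of 4 astrocyte, 2 of 5 endothelial, 1 of 5 pigment epithelium and 1 of 6 surface epithelium genes. Only 3 of the 6 listed neutrophil genes were tested. The whole neutrophil list summed to 0.0781 to 0.571 CPM in untreated samples. Its tested genes passed the filter through their RVO samples, so a lower call was not possible for them. The same holds for 2 of the 6 monocyte and macrophage genes, among them Ly6c2, at 0 in untreated samples. Of 7 lens genes 5 were tested, and Mip and Lim2 were at 0 in untreated samples. Between RVO and untreated retinas, none of the mast cell, basophil, T cell and ILC2 genes passed the filter on low counts. Of the oligodendrocyte and Schwann cell genes, 1 of 3 tested was lower, as was 1 pigment epithelium gene and 1 surface epithelium gene. In whole retina, fewer cells of a type and less RNA per cell cannot be told apart, which applies to every member below.

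**Figure D1:**
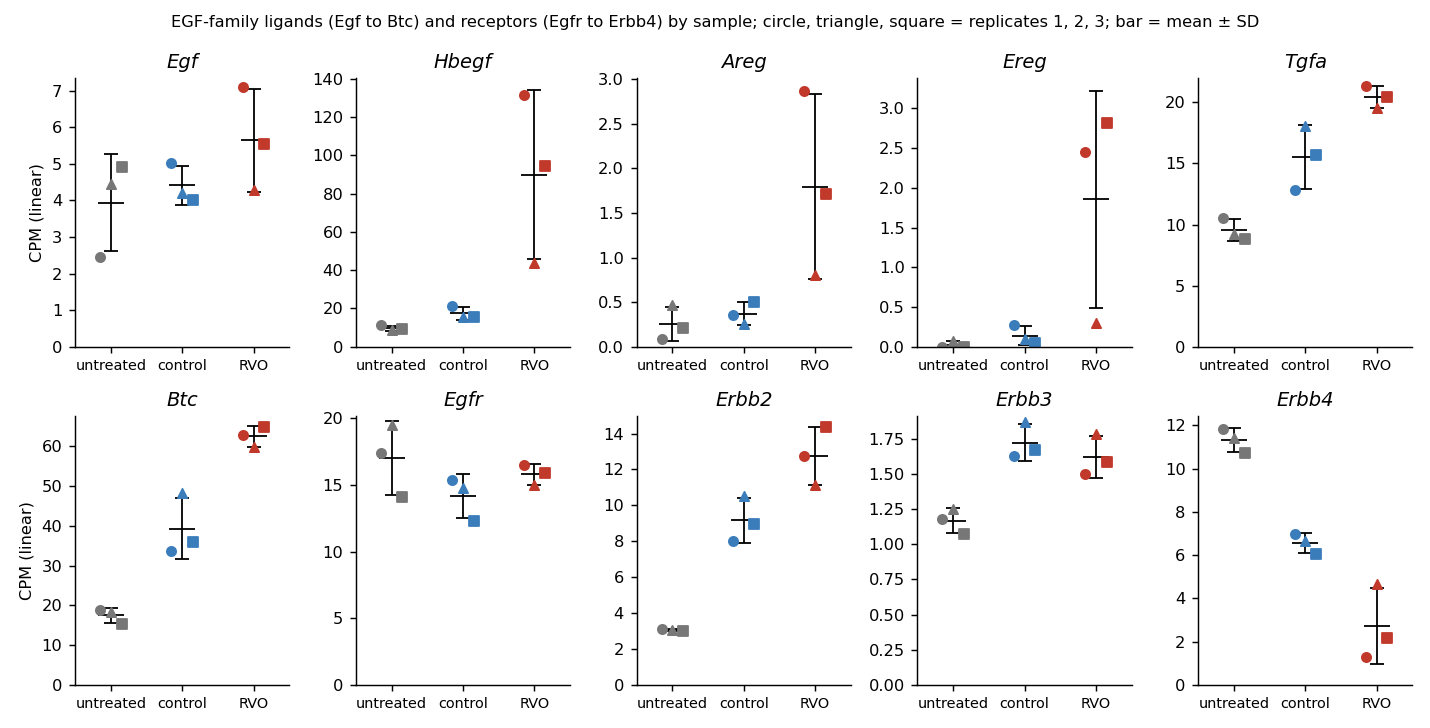
Level of each ligand and receptor in every sample, in CPM on a linear axis that starts at 0. Circles, triangles and squares are replicates 1, 2 and 3, the long bar is the mean and the whiskers are the SD (n = 3). Hbegf, Areg and Ereg were highest in RVO retinas with a wide spread, Btc, Tgfa and Erbb2 increased from untreated to control to RVO retinas, Erbb4 decreased in the same order and Egfr overlapped between all groups.

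Between RVO and untreated retinas, 6 of the 9 members tested were called. Hbegf, Areg, Tgfa, Btc and Erbb2 were higher and Erbb4 was lower. Areg passed the filter on low counts only in the comparisons with RVO, through its high RVO samples. Of all 16380 genes tested, 27.4% were called higher and 24.6% lower, so calls were common in this comparison. The higher calls were 52.7% of all calls, and 68.5% where samples were scaled by library size alone. Over all genes the log2 fold changes had a median of 0.01. Ereg was removed by the filter, and Egf, Egfr and Erbb3 were not called. Between control and untreated retinas, 5 of 8 members tested were called, with Hbegf, Tgfa, Btc and Erbb2 higher and Erbb4 lower, beside 27.2% of all 16066 genes called higher and 25.2% lower. Here the higher calls were 51.9% of all calls, and 70.4% with library size alone. Both comparisons use the same untreated samples. Between RVO and control retinas, 1 of 9 members tested was called, Hbegf, beside 2.70% of 16874 genes called higher and 0.634% lower. These 563 calls over all genes became 6257 when RVO replicate 2 was left out and 29 when RVO replicate 1 was. Leaving out control replicate 1 gave 1 call, and 0 were made when RVO replicate 3 or control replicate 2 or 3 was left out or the replicate number was used as a block. Of 18 genes of the pathway lists below that were called in this comparison, 18 were called without RVO replicate 2, 3 without RVO replicate 1, and 0 without any other single sample or with the block. The calls given below between RVO and control retinas carry this limit. At an adjusted p under 0.05, Hbegf, Areg, Tgfa, Btc and Erbb2 were higher and Erbb4 lower, beside 17.5% of genes higher and 17.1% lower.

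**Figure D2:**
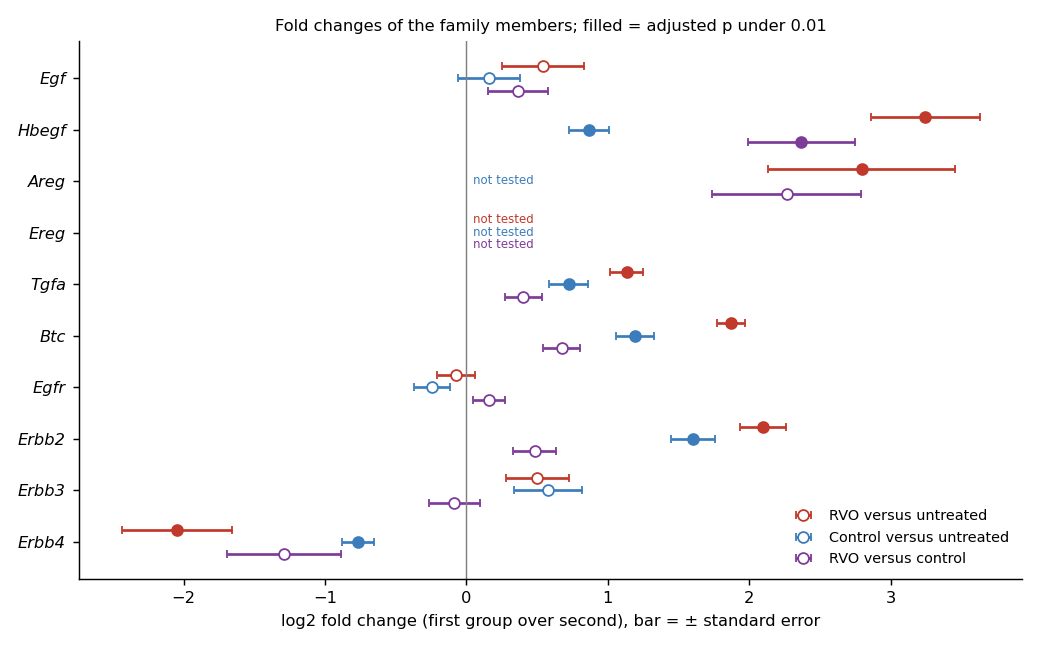
Log2 fold changes of the members in the 3 comparisons where they were tested (Ereg in none, Areg in those with RVO), with bars for the standard error of the edgeR fit (3 against 3 samples). Filled points have an adjusted p under 0.01. Values above 0 are higher in the group named first, and Hbegf is the filled point in the comparison of RVO with control retinas, at 2.37.

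Hbegf codes for HB-EGF, a heparin-binding ligand of Egfr and Erbb4 that is cleaved from the cell surface. The gene (ENSMUSG00000024486) lies at chr18:36504927-36515805 on the minus strand of GRCm38. It had 11.3, 8.83 and 9.07 CPM in untreated, 21.2, 15.7 and 15.4 CPM in control and 131, 43.6 and 94.3 CPM in RVO samples. Every RVO sample was above every control sample, and every control sample was above every untreated one. The RVO samples themselves spread over a wide range, with replicate 2 lowest. Hbegf was 9.49-fold higher in RVO retinas than in untreated ones (log2 3.25, SE 0.38, adjusted p = 0.000182) and 1.83-fold higher in control than in untreated retinas (log2 0.87, SE 0.14, adjusted p = 0.000156). Between RVO and control retinas it differed 5.16-fold (log2 2.37, SE 0.38), with an adjusted p of 0.00996 that lay just inside the threshold. Without RVO replicate 2 the adjusted p was 4.69e-06 and the log2 fold change 2.68. It was outside the threshold without RVO replicate 1 (0.0184) or 3 (0.0517) and without control replicate 1 (0.0489), 2 (0.0345) or 3 (0.0566), while the log2 fold change stayed between 1.97 and 2.68. Summed markers of some other cell types increased across the same groups. The monocyte and macrophage list had 9.14 to 12.1 CPM in untreated, 38.0 to 53.0 CPM in control and 94.3 to 108 CPM in RVO samples, with Ly6c2 at 0 in untreated samples. The neutrophil list had 0.0781 to 0.571, 4.90 to 17.1 and 32.9 to 81.8 CPM, with Cxcr2 and Mpo at 0 in untreated samples. In RVO replicates 1, 2 and 3 the monocyte and macrophage list had 94.3, 94.4 and 108 CPM, and the neutrophil list 76.6, 32.9 and 81.8 CPM. Astrocyte markers had 48.3 to 61.5, 87.8 to 134 and 148 to 226 CPM in untreated, control and RVO samples. Fibroblast markers had 23.6 to 29.4, 26.6 to 33.3 and 45.1 to 55.3 CPM. The part of any of these cells in the Hbegf level was not tested.

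Areg and Ereg code for amphiregulin and epiregulin. They are neighbours on chromosome 5 on the plus strand, Ereg (ENSMUSG00000029377) at chr5:91074622-91093646 and Areg (ENSMUSG00000029378) at chr5:91139599-91148432. Both were among the genes of lowest level in untreated retinas. Areg had 0.0908, 0.469 and 0.214 CPM in untreated, 0.362, 0.253 and 0.502 CPM in control and 2.87, 0.807 and 1.71 CPM in RVO samples. Its counts were 1, 6 and 3 in untreated, 8, 5 and 12 in control and 90, 19 and 39 in RVO samples. RVO samples were above all others, and control and untreated samples overlapped. Areg was 6.95-fold higher in RVO retinas than in untreated ones (log2 2.80, SE 0.66, adjusted p = 0.00584). This call was lost without RVO replicate 3 (adjusted p = 0.0145) and without untreated replicate 1 (0.0280), 2 (0.0119) or 3 (0.0314). Against control the fold was 4.81 (log2 2.26, SE 0.53, adjusted p = 0.0181), and without RVO replicate 2 the log2 fold change was 2.59 with an adjusted p of 0.000314. Between control and untreated retinas Areg did not pass the filter. In the comparisons with RVO it passed through the counts of its RVO samples, and its tests there carry that limit.

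Ereg had counts of 0, 1 and 0 in untreated, 6, 2 and 1 in control and 77, 7 and 64 in RVO samples. This corresponds to 2.45, 0.297 and 2.81 CPM in RVO replicates 1, 2 and 3, and to at most 0.271 CPM in any other sample. RVO replicates 1 and 3 were thus far above the rest, while RVO replicate 2 was only slightly above the highest control sample. Ereg passed the filter in no comparison of all samples and has no adjusted p there. Against a floor of 3 counts per untreated sample, its fold between RVO and untreated retinas was at least 7.72. At the depth of the untreated samples no difference between control and untreated retinas was detectable.

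Btc codes for betacellulin, a ligand of Egfr and Erbb4. It (ENSMUSG00000082361) lies close to Areg and Ereg at chr5:91357261-91402994, on the minus strand. Btc had 18.8, 18.4 and 15.3 CPM in untreated, 33.7, 48.2 and 36.0 CPM in control and 62.7, 59.8 and 64.9 CPM in RVO samples. No group overlapped another, and the RVO samples lay close together, unlike those of Hbegf. Btc was 3.66-fold higher in RVO retinas than in untreated ones (log2 1.87, SE 0.10, adjusted p = 6.47e-06) and 2.28-fold higher in control than in untreated retinas (log2 1.19, SE 0.14, adjusted p = 7.93e-06). The log2 difference between RVO and control retinas was 0.67 (SE 0.13, adjusted p = 0.0132), and without RVO replicate 2 it was 0.69 with an adjusted p of 0.00228.

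Tgfa codes for TGF-alpha, a ligand of Egfr, and lies at chr6:86195223-86275719 on the plus strand (ENSMUSG00000029999). It had 10.5, 9.22 and 8.86 CPM in untreated, 12.8, 18 and 15.6 CPM in control and 21.3, 19.5 and 20.4 CPM in RVO samples. The 3 groups did not overlap. Tgfa was 2.19-fold higher in RVO (log2 1.13, SE 0.12, adjusted p = 9.18e-05) and 1.65-fold higher in control (log2 0.72, SE 0.14, adjusted p = 0.000482) than in untreated retinas. The log2 difference between RVO and control retinas was 0.40 (SE 0.13, adjusted p = 0.0483).

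Egf codes for the ligand that gave the family its name and lies at chr3:129677565-129755316 on the minus strand (ENSMUSG00000028017). It had 2.45, 4.45 and 4.93 CPM in untreated, 5.02, 4.19 and 4.02 CPM in control and 7.10, 4.29 and 5.54 CPM in RVO samples. The groups overlapped in each comparison. The log2 differences were 0.54 (SE 0.29, adjusted p = 0.128) for RVO and 0.16 (SE 0.22, adjusted p = 0.545) for control against untreated retinas, and 0.36 (SE 0.22, adjusted p = 0.220) between RVO and control retinas. Gm42697, which overlaps Egf on the opposite strand, had 15.6 ± 2.46 CPM in untreated, 6.85 ± 0.775 CPM in control and 3.13 ± 2.15 CPM in RVO retinas (SD, n = 3). The library kit kept the strand, but whether the counting used it is not given in the sources used here, so the reads of the pair cannot be told apart with certainty.

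Promoters are shown for 3 ligands that rose in RVO retinas, and 2 of them are neighbours on chromosome 5. Each is the 250 bases before the start of the RefSeq gene on GRCm38.p6, read 5′ to 3′ on the strand of the gene. Areg is at chr5:91139349-91139598 (plus), Btc at chr5:91402995-91403244 (minus) and Tgfa at chr6:86194972-86195221 (plus). Capitals mark the cyclic AMP response element TGACGTCA, the one match found in these windows.
Areg: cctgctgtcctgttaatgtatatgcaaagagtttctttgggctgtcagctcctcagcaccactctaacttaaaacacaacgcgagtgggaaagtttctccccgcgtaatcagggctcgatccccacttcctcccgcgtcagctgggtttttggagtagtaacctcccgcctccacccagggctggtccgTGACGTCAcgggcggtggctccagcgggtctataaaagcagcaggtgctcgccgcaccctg
Btc: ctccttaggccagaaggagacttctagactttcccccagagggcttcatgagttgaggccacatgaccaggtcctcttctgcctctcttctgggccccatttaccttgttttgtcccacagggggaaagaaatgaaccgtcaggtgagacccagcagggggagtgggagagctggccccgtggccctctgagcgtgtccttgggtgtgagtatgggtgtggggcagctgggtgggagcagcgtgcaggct
Tgfa: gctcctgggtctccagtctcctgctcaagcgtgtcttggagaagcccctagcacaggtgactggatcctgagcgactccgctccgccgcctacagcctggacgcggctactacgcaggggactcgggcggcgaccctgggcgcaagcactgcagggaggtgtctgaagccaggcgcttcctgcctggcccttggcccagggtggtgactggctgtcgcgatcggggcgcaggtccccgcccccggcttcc

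The response element of Areg began at -61 relative to the gene start. Both strands were searched for TGACGTCA and for the AP-1 motif TGANTCA, which do not match the same letters. The windows of Btc, Tgfa, Egf, Egfr, Erbb2 and Erbb4 held neither motif. Of 32851 windows of the same length, 1.55% held TGACGTCA and 6.75% held TGANTCA. Hbegf, Ereg and Erbb3 were not searched. A match describes letters and does not show binding.

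Egfr codes for the EGF receptor and lies at chr11:16752203-16918158 on the plus strand (ENSMUSG00000020122). It had 17.4, 19.5 and 14.1 CPM in untreated, 15.4, 14.8 and 12.3 CPM in control and 16.5, 15.0 and 15.9 CPM in RVO samples. The groups overlapped in each comparison. The log2 differences were -0.07 (SE 0.14, adjusted p = 0.651) for RVO and -0.24 (SE 0.13, adjusted p = 0.109) for control against untreated retinas, and 0.16 (SE 0.12, adjusted p = 0.304) between RVO and control retinas. Scaling by library size alone gave 0.14 in the first comparison. Over the same groups, the 6 Mueller cell markers summed to 4331 to 4580 CPM in untreated, 2676 to 3299 CPM in control and 1524 to 2288 CPM in RVO samples. Between control and untreated retinas 3 of the 6 were called lower and 1 higher, beside 25.2% and 27.2% of all genes. The part of Mueller cells in the Egfr level was not tested.

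Erbb2 codes for the receptor without a ligand and lies at chr11:98412470-98437716 on the plus strand (ENSMUSG00000062312). It had 3.09, 3.05 and 3.00 CPM in untreated, 8.0, 10.5 and 8.95 CPM in control and 12.8, 11.1 and 14.4 CPM in RVO samples. The 3 groups did not overlap, and untreated samples were nearly equal. Erbb2 was 4.28-fold higher in RVO (log2 2.10, SE 0.16, adjusted p = 2.79e-05) and 3.04-fold higher in control (log2 1.60, SE 0.16, adjusted p = 2.31e-06) than in untreated retinas. Between RVO and control retinas the log2 difference was 0.48 (SE 0.15, adjusted p = 0.0430), and without RVO replicate 2 it was 0.55 with an adjusted p of 0.00749. The antisense neighbour Mien1, whose reads could mix with those of Erbb2 if strand was not used, was called in no comparison and had 41.8 ± 2.63, 40.0 ± 1.5 and 43.1 ± 1.58 CPM in untreated, control and RVO retinas.

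Erbb4 codes for a receptor of neuregulins, HB-EGF and betacellulin and lies at chr1:68032186-69108059 on the minus strand (ENSMUSG00000062209). It was the member that fell. Erbb4 had 11.8, 11.4 and 10.7 CPM in untreated, 6.96, 6.67 and 6.03 CPM in control and 1.31, 4.67 and 2.15 CPM in RVO samples. No group overlapped another, and RVO replicate 2 was the highest of the RVO samples. It was 4.13-fold lower in RVO retinas than in untreated ones (log2 -2.05, SE 0.39, adjusted p = 0.00202) and 1.70-fold lower in control than in untreated retinas (log2 -0.77, SE 0.11, adjusted p = 7.31e-05). The first call was lost without RVO replicate 3 (adjusted p = 0.0114) or untreated replicate 1 (0.0108). Between RVO and control retinas the log2 difference was -1.29 (SE 0.40, adjusted p = 0.0430), and without RVO replicate 2 it was -1.96 with an adjusted p of 0.000102. Marker sums of inner retinal neurons fell over the same groups. Amacrine markers had 695 to 751 CPM in untreated, 586 to 631 CPM in control and 235 to 423 CPM in RVO samples, ganglion cell markers had 864 to 908, 704 to 744 and 194 to 455 CPM, and bipolar markers had 1080 to 1132, 869 to 951 and 320 to 624 CPM. No marker of these lists was at 0 in untreated samples. The single markers did not all fall. Between control and untreated retinas 3 of 5 amacrine, 4 of 5 ganglion cell and 1 of 5 bipolar markers were called lower. In the same comparison 1 amacrine and 1 bipolar marker were called higher, and the bipolar median was 0.04 (log2). The part of these neurons in the Erbb4 level was not tested.

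Erbb3 codes for a neuregulin receptor with little kinase activity and lies at chr10:128567523-128589652 on the minus strand (ENSMUSG00000018166). It had 1.18, 1.25 and 1.07 CPM in untreated, 1.63, 1.87 and 1.67 CPM in control and 1.5, 1.78 and 1.58 CPM in RVO samples. Untreated samples were below the other groups, which overlapped each other. The log2 differences were 0.50 (SE 0.23, adjusted p = 0.0782) for RVO and 0.58 (SE 0.24, adjusted p = 0.0488) for control against untreated retinas, and -0.09 (SE 0.18, adjusted p = 0.732) between RVO and control retinas.

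Levels of different genes were compared as CPM per kb of the union of exons. In untreated retinas Btc was highest with 3.87, followed by Hbegf with 2.01, Egfr with 1.5, Tgfa with 1.47, Erbb4 with 0.915, Erbb2 with 0.584, Egf with 0.350, Areg with 0.212, Erbb3 with 0.194 and Ereg with 0.00631 CPM per kb. The samples of Egfr and Tgfa overlapped, as did those of Egf and Areg and of Areg and Erbb3. In RVO retinas Hbegf had 18.6 and Btc 13.8 CPM per kb, and their samples overlapped. Tgfa followed with 3.15, Erbb2 with 2.45, Areg with 1.48, Egfr with 1.39, Egf with 0.501, Ereg with 0.449, Erbb3 with 0.269 and Erbb4 with 0.219 CPM per kb. Neighbours from Erbb2 to Egfr overlapped, as did those from Egf to Erbb4. Control retinas had Btc with 8.69, Hbegf with 3.61, Tgfa with 2.39, Erbb2 with 1.76, Egfr with 1.25, Erbb4 with 0.530, Egf with 0.391, Areg with 0.306, Erbb3 with 0.287 and Ereg with 0.0334 CPM per kb, where Tgfa and Erbb2 overlapped and so did Egf with Areg and Areg with Erbb3.

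The makeup of the ligands and receptors was described on the same scale, with the union of exons as length. The 6 ligands summed to 7.92 ± 0.607 CPM per kb in untreated, 15.4 ± 1.62 CPM per kb in control and 38.0 ± 10.9 CPM per kb in RVO retinas (SD, n = 3). Hbegf made up 22.5% to 27.7% of this sum in untreated, 18.8% to 30% in control and 34.2% to 56.7% in RVO samples. Btc made up 46.7% to 50.1%, 51.0% to 61.6% and 29.0% to 50.2%, so that its share in RVO samples overlapped with that in untreated samples although its level was higher. The 4 receptors summed to 3.20 ± 0.299, 3.82 ± 0.313 and 4.33 ± 0.24 CPM per kb. Erbb2 made up 17.0% to 20.1% of the receptor sum in untreated, 41.2% to 48.3% in control and 51.7% to 60.0% in RVO samples. Erbb4 made up 26.8% to 30.3%, 12.9% to 15.1% and 2.48% to 9.15%. The share of Egfr was 43.4% to 50.1% in untreated samples, and 30.4% to 36.4% and 30.5% to 34.2% in control and RVO samples. With the longest transcript as length, Hbegf was 57.3% and Btc 28.6% of the summed ligand means in RVO retinas, and 31.0% and 40.0% in untreated retinas. These shares are a description and were not tested.

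**Figure D3:**
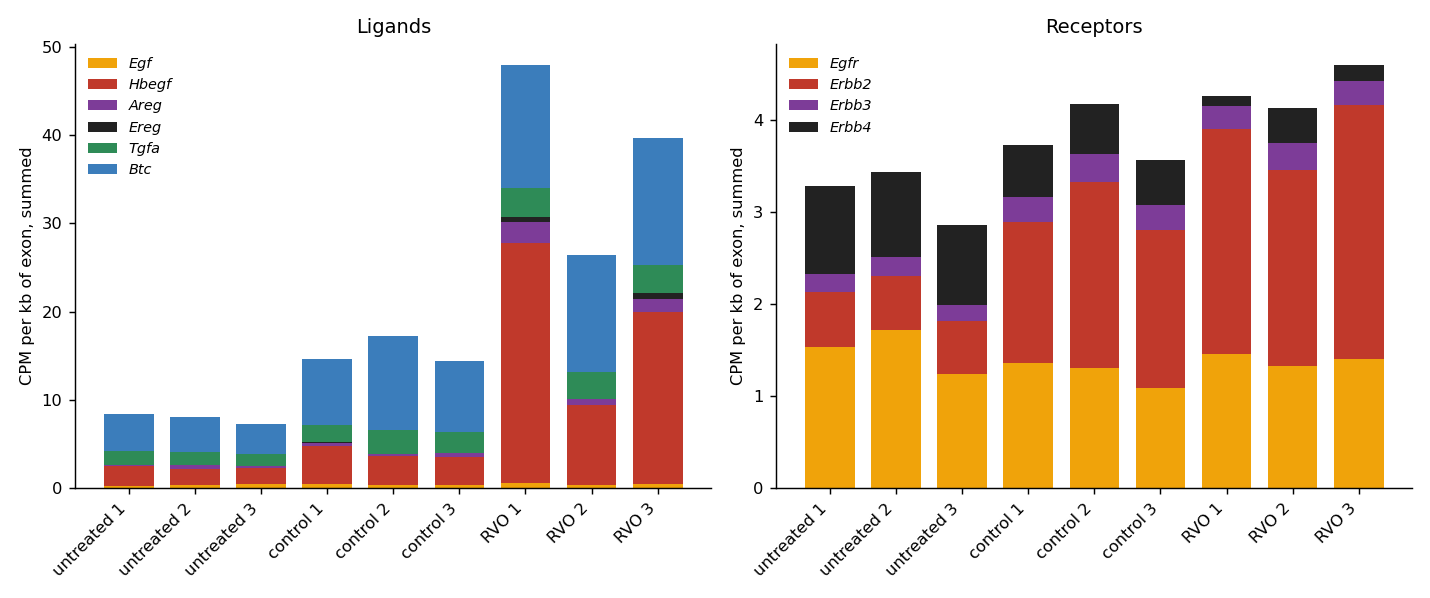
Stacked levels of the 6 ligands and the 4 receptors in every sample, in CPM per kb of exon from 0. The ligand sum was 7.92 in untreated, 15.4 in control and 38.0 in RVO retinas on average, mostly Hbegf and Btc, and in the receptors the Erbb2 segment grew while the Erbb4 segment shrank.

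Among other ligands of the family, the neuregulin genes Nrg1 and Nrg3 were lower. Of 4 genes tested, 2 were called lower and 0 higher in RVO retinas than in untreated ones, beside 24.6% and 27.4% of all genes. The list median was -0.55 beside 0.01 over all genes (log2). With 4 genes, such counts are too small to describe the list. Nrg1 had 11 ± 0.932 CPM in untreated, 7.69 ± 0.158 CPM in control and 5.01 ± 0.695 CPM in RVO retinas, with log2 fold changes of -1.10 (RVO, adjusted p = 0.000480) and -0.50 (control, adjusted p = 0.00145) against untreated. Nrg3 had 10.2 ± 0.960, 7.34 ± 0.464 and 4.06 ± 1.43 CPM, with -1.30 (adjusted p = 0.00180) and -0.46 (adjusted p = 0.00429). Both bind Erbb4. Nrg2 and Nrg4 were not called in any comparison, and Epgn, the neighbour of Ereg, had at most 0.132 CPM in the mean of any group. Between control and untreated retinas the list had 2 lower calls, beside 25.2% of all genes, and a median of -0.05. It had no call at 0.01 between RVO and control retinas and a median of -0.51 there. At 0.05 it had 0 higher and 2 lower, beside 17.5% and 17.1% of all genes.

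Of 9 genes for shedding of ligands, 4 were called higher and 2 lower in RVO retinas than in untreated ones, beside 27.4% and 24.6% of all genes, with a median of 0.70 (log2). Between control and untreated retinas 3 of 8 were higher and 2 lower, beside 27.2% and 25.2% of all genes, with a median of 0.14. The last comparison, RVO with control retinas, had 1 of 9 higher and 0 lower, with a median of 0.23. There 2.7% of all genes were called higher and 0.634% lower. The sheddase Adam17 was not called and had 28.8 ± 2.39, 26.1 ± 0.821 and 30.6 ± 1.59 CPM in untreated, control and RVO retinas. The iRhom genes Rhbdf1 and Rhbdf2, whose products carry ADAM17 to the cell surface, were higher. Rhbdf1 had 4.87 ± 0.766, 10.9 ± 0.606 and 18.9 ± 5.28 CPM, with log2 fold changes against untreated of 2.0 in RVO (adjusted p = 0.000219) and 1.20 in control retinas (adjusted p = 7.18e-06). Rhbdf2 had 10.9 ± 0.711, 19.8 ± 0.858 and 31.3 ± 3.75 CPM, with 1.55 (adjusted p = 3.30e-05) and 0.88 (adjusted p = 5.32e-06). The intramembrane protease gene Rhbdl2 had a fold of at least 3.58 between RVO and untreated retinas, against a floor of 3 counts per untreated sample. Between RVO and control retinas its fold was 4.28 (adjusted p = 0.00996). Rhbdl2 passed the filter in these comparisons only through its RVO samples. Its calls there carry that limit. Adam9 was called lower with a log2 fold change of -0.24 between RVO and untreated retinas. Adam10, the main sheddase of EGF and betacellulin, was lower, with 90.4 ± 1.68, 63.2 ± 4.25 and 60.8 ± 10.2 CPM and log2 fold changes of -0.54 (RVO, adjusted p = 0.00357) and -0.50 (control, adjusted p = 1.17e-05).

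In the list of pathway inhibitors, higher calls outnumbered lower ones, and whether this differed from all genes was not tested. Of 20 genes for feedback and receptor turnover, against untreated retinas 10 were higher and 2 lower in RVO, and 7 were higher and 2 lower in control retinas, with medians of 0.32 and 0.10. The shares over all genes were 27.4% up and 24.6% down for RVO, and 27.2% up and 25.2% down for control retinas. Both all-gene medians were 0.01. In RVO against control retinas 2 were higher, 0 lower and the median was 0.14. There the all-gene shares were 2.7% up and 0.634% down, with a median of 0.02. Those 2 were Spry2, a Sprouty inhibitor of RAS-ERK signalling, and Dusp6, an ERK phosphatase. Spry2 had 55.5 ± 1.63, 70.0 ± 6.74 and 181 ± 54.8 CPM in untreated, control and RVO retinas, with log2 1.37 between RVO and control (adjusted p = 0.00980). Dusp6 had 25.1 ± 0.375, 29.4 ± 4.70 and 54.1 ± 5.22 CPM, with 0.89 (adjusted p = 0.00928). Dusp5, another phosphatase gene of the family, was 3.26-fold higher in RVO retinas than in untreated ones. Those called lower were Cblb (log2 -0.39), a ubiquitin ligase gene, and Socs4 (log2 -0.37). Lrig1, which promotes loss of ERBB receptors from the membrane, had 52.1 ± 1.57, 80.8 ± 11.1 and 106 ± 2.85 CPM and was 2.08-fold higher in RVO retinas than in untreated ones (adjusted p = 1.41e-05). Errfi1, a direct inhibitor of the EGFR kinase, had 36.8 ± 0.758, 34.0 ± 1.53 and 45.6 ± 3.59 CPM, with log2 0.34 between RVO and untreated (adjusted p = 0.00743).

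Genes of the signalling proteins were called in both directions, as were all genes (27.4% higher and 24.6% lower in RVO, 27.2% and 25.2% in control against untreated retinas). Of 18 adaptor and RAS-ERK genes, 8 were higher and 7 lower in RVO, and 8 higher and 6 lower in control than in untreated retinas, with medians of 0.23 and 0.13. In RVO against control retinas 1 of the 18 was higher, beside 2.7% of all genes, and the median was 0.06. This was the adaptor gene Shc1, with 11.8 ± 1.55, 16.6 ± 0.731 and 26.7 ± 2.22 CPM in untreated, control and RVO retinas (log2 0.69 between RVO and control, adjusted p = 0.00860). Nras, which codes for a RAS protein, had 30.6 ± 1.78, 44.1 ± 3.05 and 71.6 ± 12.0 CPM (log2 1.26 between RVO and untreated, adjusted p = 0.000108). The log2 fold change between RVO and untreated retinas was also called for Map2k2 (1.31), which codes for a kinase of ERK, and for Rasa1 (-0.92), a RAS inhibitor. Of 16 PI3K-AKT and STAT genes, 7 were higher and 5 lower in RVO, 8 higher and 6 lower in control than in untreated retinas, and none was called between RVO and control, with medians of 0.15, 0.23 and 0.07. At an adjusted p under 0.05, 3 were higher and 2 lower in that last comparison, beside 17.5% and 17.1% of all genes. Stat3 rose most, with 60.9 ± 1.52, 260 ± 39.5 and 432 ± 47.2 CPM and a log2 fold change between RVO and untreated retinas of 2.86 (adjusted p = 1.28e-06). The kinase gene Src was higher (log2 1.27) and Stat5b lower (log2 -0.75) in the same comparison.

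**Figure D4:**
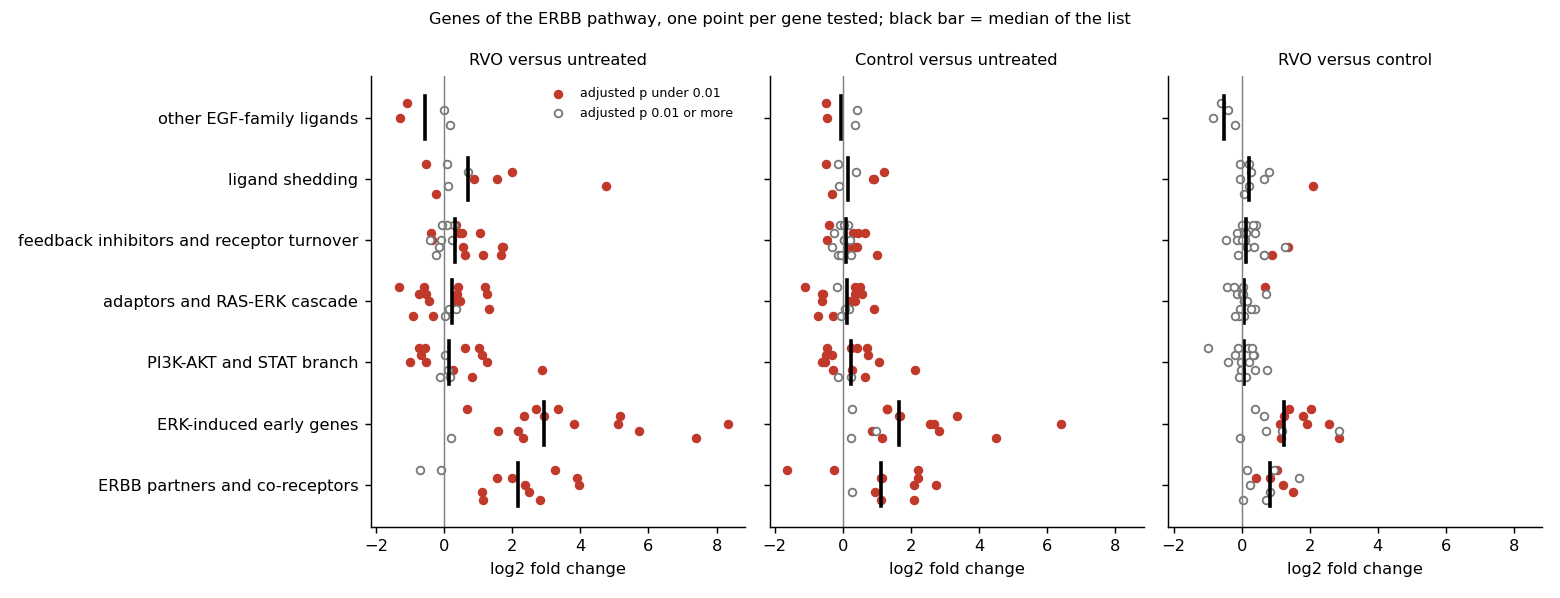
Log2 fold changes of the tested genes of 7 lists of the ERBB pathway in the 3 comparisons, 1 point per gene, filled where the adjusted p is under 0.01. Black bars are list medians, which were highest for ERK-induced early genes (2.93, 1.66 and 1.26), and points for genes with few counts in untreated retinas (Egr2, Plaur, Rhbdl2) depend on the prior count of the fit.

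Early genes that ERK signalling is known to induce were mostly higher than in untreated retinas. Of 15 tested, 14 were called higher in RVO and 12 in control than in untreated retinas, and 9 in RVO than in control retinas. The medians were 2.93, 1.66 and 1.26, beside 0.01, 0.01 and 0.02 over all genes. Of all genes tested, 27.4%, 27.2% and 2.7% were called higher in these comparisons. Against untreated retinas, a lower call was not possible for Egr2 and Plaur. Their untreated counts did not exceed 3, and they passed the filter through their laser-treated samples. None of the 15 early genes was called lower. Many other signals induce these genes, and Plaur, Egr2, Junb, Myc and Ccnd1 were among genes the study had picked from these samples, so they are not independent evidence of direction. The same limit holds for Egr1, which the study reported as increased in both laser groups by qPCR, in a time course that included these RNA samples. The transcription factor gene Junb had 8.58 ± 1.49 CPM in untreated, 86.8 ± 17.5 CPM in control and 300 ± 50.0 CPM in RVO retinas, with a log2 difference between RVO and control of 1.79 (adjusted p = 0.00566). Fosl1, which codes for the AP-1 subunit FRA-1, had 1.60 ± 0.340, 11.3 ± 3.74 and 82.5 ± 51.8 CPM (log2 5.71 between RVO and untreated, adjusted p = 0.000161). Against a floor of 3 counts per untreated sample, the folds of Egr2 were at least 43.3 for RVO and at least 11.5 for control retinas, and those of the urokinase receptor gene Plaur at least 94.9 and at least 13.1. Etv4 was the gene called in no comparison.

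Partners and co-receptors of the ERBB family were also mostly higher. Of 12 tested, 10 were called higher and 0 lower in RVO, and 9 higher and 2 lower in control than in untreated retinas. Between RVO and control retinas 5 were higher and 0 lower. The medians were 2.18, 1.13 and 0.83, beside 0.01, 0.01 and 0.02 over all genes. Of all genes tested, 27.4%, 27.2% and 2.7% were called higher and 24.6%, 25.2% and 0.634% lower in these comparisons. Cd44, a hyaluronan receptor that can bind HB-EGF through its heparan sulfate chains, had 14.2 ± 1.90, 93.2 ± 19.0 and 215 ± 34.4 CPM in untreated, control and RVO retinas, with log2 1.21 between RVO and control (adjusted p = 0.00893). Sdc1, a heparan sulfate proteoglycan, had 0.584 ± 0.236, 2.66 ± 1.14 and 8.59 ± 0.770 CPM (log2 3.90 between RVO and untreated, adjusted p = 1.80e-05). The receptor kinase gene Axl had 11.3 ± 1.17, 52.1 ± 5.63 and 107 ± 21.7 CPM (log2 1.04 between RVO and control, adjusted p = 0.00977). Muc4, which codes for a mucin that binds ERBB2, went the other way in control retinas, with 3.83 ± 0.658, 1.18 ± 0.302 and 2.30 ± 0.981 CPM (log2 -1.65 between control and untreated, adjusted p = 5.62e-05).

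For the members with at least 1 CPM that were called in a comparison, the 3 genes of most similar profile were sought among 14974 genes, by the root mean square difference of log2 CPM over the 9 samples after each gene's own mean was removed. For Hbegf these were the keratin gene Krt24 (difference 0.13), Fkbp11 (0.24) and AA467197 (0.25). Krt24, which the study had also picked from these samples, had 0.401, 0.765 and 4.06 CPM in untreated, control and RVO retinas on average. For Btc they were the ephrin receptor gene Ephb4 (0.09), Agtpbp1 (0.10) and Sh3pxd2b (0.10), and for Erbb2 the fibronectin gene Fn1 (0.09), Hn1 (0.10) and Tspan4 (0.10). Fn1 had 28.0, 72.7 and 108 CPM on average in the 3 groups. For Tgfa they were Glo1 (0.08), Rph3al (0.09) and Caprin2 (0.09). For Erbb4 they were the neuronal matrix and adhesion genes Tnr (0.08) and Opcml (0.08) and the synaptic scaffold gene Lin7a (0.10). Tnr had 158 ± 8.45, 98.3 ± 7.41 and 42.3 ± 30.2 CPM in untreated, control and RVO retinas, with the same wide spread in RVO as Erbb4. The 9 samples are the same for each gene, and the likeness is a description.

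**Figure D5:**
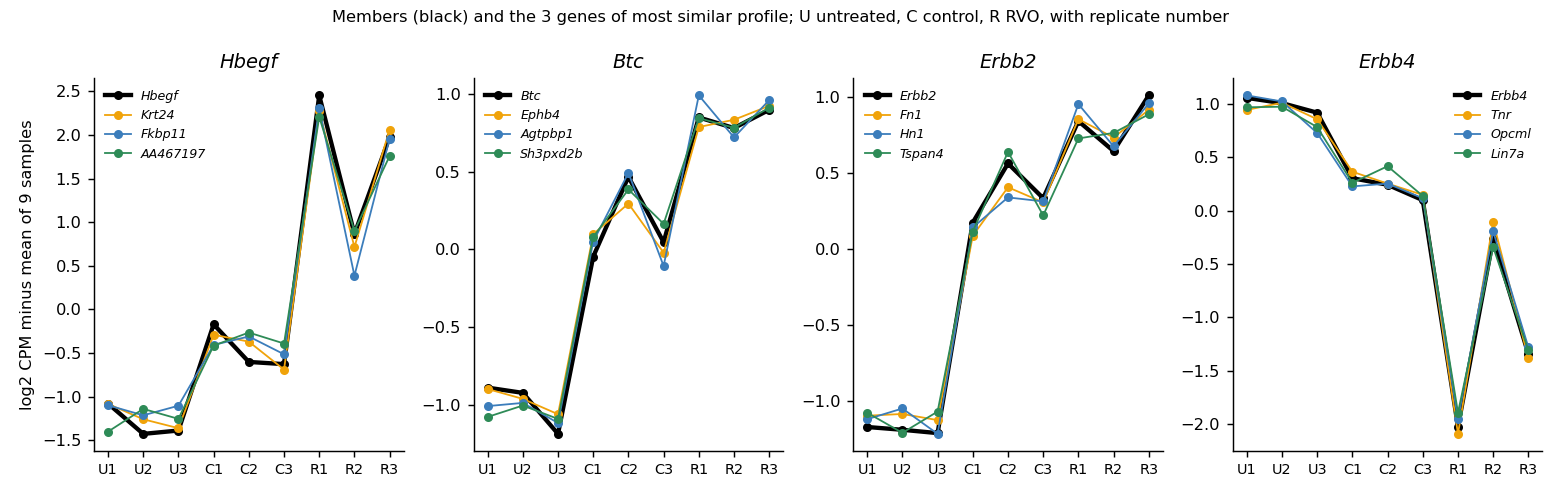
Profiles of Hbegf, Btc, Erbb2 and Erbb4 (black) with their 3 most similar genes (colours) over the 9 samples, as log2 CPM minus the mean of the gene. For Hbegf and Erbb4, RVO replicate 2 lies nearest to the control samples for the member and its 3 similar genes alike, while the RVO samples of Btc and Erbb2 lie closer together. The root mean square differences were between 0.08 and 0.25.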

How the data were processed

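Retinal RNA was sequenced as stranded poly-A libraries of 9 pools of 6 retinas, 3 per group. The authors aligned the reads to GRCm38 with STAR 2.5.2b, assigned them to genes of Gencode vM11 with featureCounts (Subread 1.5.1) and deposited raw counts by gene symbol. How reads matching several genes were counted is not given in the sources used here. Of 48679 rows, 92 were spike-in controls with 0 counts and were left out. All sample columns matched their labels, and 0 columns were left unused. Replicates differed by more than sampling noise (chi-square per degree of freedom 3.15 to 54.1).

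Differences were tested on the counts with edgeR 4.0.16 under R 4.3.3 (filterByExpr, TMM, quasi-likelihood test, Benjamini-Hochberg adjustment over all genes tested), with each pair of groups fitted on its own. The TMM factors were 1.05 to 1.08 for RVO, 1.02 to 1.05 for control and 0.890 to 0.918 for untreated samples. The biological coefficient of variation was 13.8% (RVO and untreated), 7.49% (control and untreated) and 14.4% (RVO and control). A gene was called at an adjusted p under 0.01. Where all samples of a group had at most 3 counts, a lower bound of the fold change was computed against 3 counts per library, which covers counting error only. Exon lengths and positions came from GENCODE vM21 on GRCm38. Profiles used log2 CPM with a prior count of 2. The procedure was tested on simulated data. DESeq2 1.42.0, other normalizations and filters, a fit of all 9 samples, thinned libraries, the replicate number as a block, an adjusted p of 0.05 and samples left out in turn were tried as alternatives.

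The members, the lists of pathway and marker genes and the tests were chosen with earlier results of these data known. All 10 members are named. From each pathway list, called genes with the 2 largest rises and the 2 largest falls were to be named, and others for their role, and the 3 genes of most similar profile for each member called with at least 1 CPM. Some genes that this rule names are not reported here. Proteins and the study's qPCR and imaging were not analysed here.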

Additional observations from a re-analysis of the deposited data

How the results depend on the processing

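The number of members called was 6 between RVO and untreated retinas and 5 between control and untreated retinas. With samples left out in turn these were 4 to 7 and 5 to 5. Under the other alternatives, 1 value moved by over 1.5 times, the 3 members called between control and untreated retinas in the fit of all 9 samples, where Hbegf (adjusted p = 0.0659) and Erbb4 (0.0631) were lost. Calls over all genes in that comparison went from 8416 to 6400 in the same fit. The 1 member called between RVO and control retinas depended on the setting. It was 0 with RLE size factors, with the stricter filter and with the replicate block, 3 in the fit of all 9 samples, 4 without a filter, 4 with DESeq2 and 6 at an adjusted p under 0.05. Calls over all genes, 563 in the main setting, moved as well. They were 400, 532 and 0 in the first 3 of these settings, and 3853, 3309, 4019 and 5836 in the others, in the same order. With samples left out it was 0 to 6, with 6 without RVO replicate 2 and 0 without any other single sample, while the calls over all genes went from 563 to 6257 and to 0 to 29. Ereg, which then passed the filter through its high RVO samples, is 1 of the 6, 1 of the 4 without a filter and 1 of the 7 against untreated retinas. Areg, which passed the filter through its RVO samples, is among the 6 members called between RVO and untreated retinas. The cause of the changes in these counts was not tested.

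With the replicate block, 6 and 5 members were called against untreated retinas. Deviations of same-numbered samples from their group means had correlations of -0.14 to 0.08 over the comparisons. Fellow eyes are possible only between RVO and control retinas, where the correlations were -0.13, -0.14 and 0.07. With 3 samples per group, these values cannot show whether the pools were paired. Whether same-numbered pools held fellow eyes is not given in the sources used here, so the numbers were not taken as pairs. A sample correlated best with its own number in 2, 3 and 1 of 6 samples in the 3 comparisons. The log2 difference of Egfr between RVO and untreated retinas turned to 0.14 with library size alone. With samples left out it was -0.20 to 0.029, above 0 without untreated replicate 2, and that of Egf between control and untreated retinas was -0.086 to 0.34, below 0 without untreated replicate 1. These were not called in any setting. Under library size alone the median over all genes moved on the log2 scale by 0.21 (RVO) and 0.17 (control) against untreated retinas, and the higher share of calls from 52.7% to 68.5% and from 51.9% to 70.4%. With the longest transcript as length, the untreated level of Egf was 0.829 in place of 0.350 CPM per kb and that of Hbegf 3.36 in place of 2.01. Egf then ranked above Erbb2 in untreated and above Erbb4 in control retinas. Depth limited Ereg and Areg, with at most 6 counts in untreated samples.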
